A study of Mus musculus with 12 samples.

Results

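H3K4me3 peaks of the lateral and the caudal ganglionic eminence (LGE and CGE) of the embryonic mouse forebrain were compared gene by gene and interval by interval. The tissue came from wild-type C57BL/6J embryos, and no treatment or genetic change separated the groups. The submitters' protocol text names dissections at E12.5 and E14.5, and the study's text places this assay at E12.5. The profiles were made by CUT&Tag, which tethers a transposase to antibody-bound chromatin in unfixed nuclei, with an antibody against H3K4me3 and about 100000 nuclei per reaction. There were 2 biological replicates of the LGE in 2 libraries and 2 of the CGE in 4 libraries, which makes 6 of the 12 libraries of the series. The medial eminence (MGE) and the cortex (CTX) served here as reference values alone. The tissue was dissected and not sorted, each replicate pooled several embryos, and the protocol text also describes mixing equal numbers of nuclei from the 4 regions before the reactions, although the libraries are labelled by region.

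The authors merged the replicates of a region before calling broad peaks, so that each region has 1 list, no replicate error can be given and no test between regions was possible. All differences below are between 2 lists of peaks, and Wilson 95% intervals on shares cover counting error alone. The deposited lists held 17284 peaks for the LGE and 17752 for the CGE, and after the mitochondrial peaks were set aside they covered 21.6 and 23.5 Mb of GRCm38. Their median peak widths were 1168 and 1240 bp. The MGE and CTX lists had narrower peaks, with medians of 563 and 701 bp, and covered 17.1 and 16.7 Mb. Covered bases in the MGE and CTX lists are therefore not on the same scale as those in the LGE and CGE lists. Of 21938 nuclear protein-coding genes, 14299 had at least 1 peak-covered base within 5 kb of an annotated transcription start site (TSS) in the LGE or the CGE list and were the genes described. A gene with such a base is called marked. The median −log10 q of a peak was 40.0 in the LGE and 79.4 in the CGE list, and the study's methods state a greater sequencing depth for the CGE replicates. Depth and region cannot be told apart in these 2 lists. The peak numbers in the lists run with gaps, with 59 numbers missing from the LGE and 64 from the CGE list, and the absence of a peak cannot be read in the stretch between the neighbours of a missing number.

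H3K4me3 is deposited at the first nucleosomes of active and poised promoters, mostly at CpG-rich starts, and it spreads further into the gene body at many genes that define cell identity. The ganglionic eminences are transient bulges of the ventral forebrain that produce GABAergic neurons. The LGE is the source of striatal projection neurons and olfactory bulb interneurons, and the CGE, which lies behind it and borders the developing amygdala, is the source of a large share of the Vip and Reln interneurons of the cortex.

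Sequences that were covered in a single list are shown first, because they differ in the feature that H3K4me3 usually follows. All are from GRCm38.p6, written 5′ to 3′ with CG dinucleotides in capitals. The first 2 are 250 bases at the centre of the widest CGE-only intervals beside Nr2f2, read on the plus strand, at chr7:70336410-70336659 inside the lincRNA Gm29683 and at chr7:70369033-70369282 upstream of Nr2f2 and inside the noncoding B130024G19Rik.
Gm29683 interval: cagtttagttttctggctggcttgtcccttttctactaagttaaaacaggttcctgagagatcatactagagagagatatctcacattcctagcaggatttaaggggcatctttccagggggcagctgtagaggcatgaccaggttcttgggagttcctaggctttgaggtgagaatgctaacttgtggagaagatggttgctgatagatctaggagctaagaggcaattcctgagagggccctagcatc
Nr2f2 upstream interval: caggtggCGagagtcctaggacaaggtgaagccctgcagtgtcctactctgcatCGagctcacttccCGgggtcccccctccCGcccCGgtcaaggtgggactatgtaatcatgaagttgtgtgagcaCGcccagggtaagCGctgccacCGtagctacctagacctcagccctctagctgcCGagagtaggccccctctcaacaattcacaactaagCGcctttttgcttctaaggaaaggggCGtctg
The stretch in Gm29683 held 0 CG and the stretch upstream of Nr2f2 held 11, with GC contents of 46.8% and 58.4%.

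The next set shows the 250 bases upstream of a RefSeq start of 5 genes with a large difference in coverage, on the strand of the gene. Lhx9 (chr1:138842445-138842694, minus strand) and Bhlhe23 (chr2:180776901-180777150, minus strand) had 250 of these bases covered in the CGE list and 0 in the LGE list, and Tfap2e (chr4:126736270-126736519, minus strand) had 107 covered in the CGE and 0 in the LGE list. Prdm12 (chr2:31639787-31640036, plus strand) and Tnc (chr4:64046937-64047186, minus strand) had all 250 covered in the LGE and 0 in the CGE list.
Lhx9: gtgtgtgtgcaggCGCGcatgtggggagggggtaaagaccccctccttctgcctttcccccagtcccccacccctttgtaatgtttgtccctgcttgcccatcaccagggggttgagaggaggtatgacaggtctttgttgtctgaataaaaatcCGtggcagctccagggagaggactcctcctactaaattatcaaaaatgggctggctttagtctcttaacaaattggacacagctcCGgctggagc
Tfap2e: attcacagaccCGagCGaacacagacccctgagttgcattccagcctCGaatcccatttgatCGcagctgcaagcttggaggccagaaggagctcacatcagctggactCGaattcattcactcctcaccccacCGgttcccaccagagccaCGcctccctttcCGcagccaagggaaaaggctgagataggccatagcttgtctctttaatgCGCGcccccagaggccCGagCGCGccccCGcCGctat
Bhlhe23: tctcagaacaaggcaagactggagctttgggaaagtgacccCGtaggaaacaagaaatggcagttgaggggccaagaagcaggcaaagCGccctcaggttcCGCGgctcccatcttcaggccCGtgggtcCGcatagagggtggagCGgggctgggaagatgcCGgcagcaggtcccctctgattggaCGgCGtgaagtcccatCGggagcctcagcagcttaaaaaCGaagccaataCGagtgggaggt
Prdm12: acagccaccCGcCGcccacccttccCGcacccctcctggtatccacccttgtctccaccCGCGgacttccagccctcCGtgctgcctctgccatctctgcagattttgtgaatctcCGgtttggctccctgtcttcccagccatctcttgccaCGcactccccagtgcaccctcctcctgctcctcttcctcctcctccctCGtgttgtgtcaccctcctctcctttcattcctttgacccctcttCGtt
Tnc: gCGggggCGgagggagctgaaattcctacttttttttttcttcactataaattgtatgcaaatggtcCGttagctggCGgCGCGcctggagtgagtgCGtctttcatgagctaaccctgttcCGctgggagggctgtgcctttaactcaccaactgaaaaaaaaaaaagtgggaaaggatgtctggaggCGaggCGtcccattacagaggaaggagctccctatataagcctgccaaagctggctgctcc
They held 4, 15, 13, 10 and 10 CG, in the order printed. The median over 32851 RefSeq promoters of that length was 6, with an interquartile range of 2 to 16, so that 4 of these 5 promoters lay above the median and Lhx9 below it.

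Most genes carried H3K4me3 in both eminences at nearly the same width. There were 13967 genes marked in both lists and 7639 marked in neither. Among those marked in both, the median coverage was 1408 bases in the LGE and 1508 in the CGE, and 12171 genes (87.1%) lay within 1.25-fold of each other. The CGE list was slightly wider at most of these genes. The median ratio of CGE to LGE was 1.05 (log2 0.08, interquartile range 0.01 to 0.17), and 80.7% of the genes had more covered bases in the CGE. The same small offset was seen around gene 5′ ends, where 51.8% of the genes were covered in the LGE and 53.0% in the CGE. For 11222 genes with a peak over the 5′ end in both lists, the CGE peak reached a median of 19 bp further upstream and 27 bp further downstream.

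**Figure D1:**
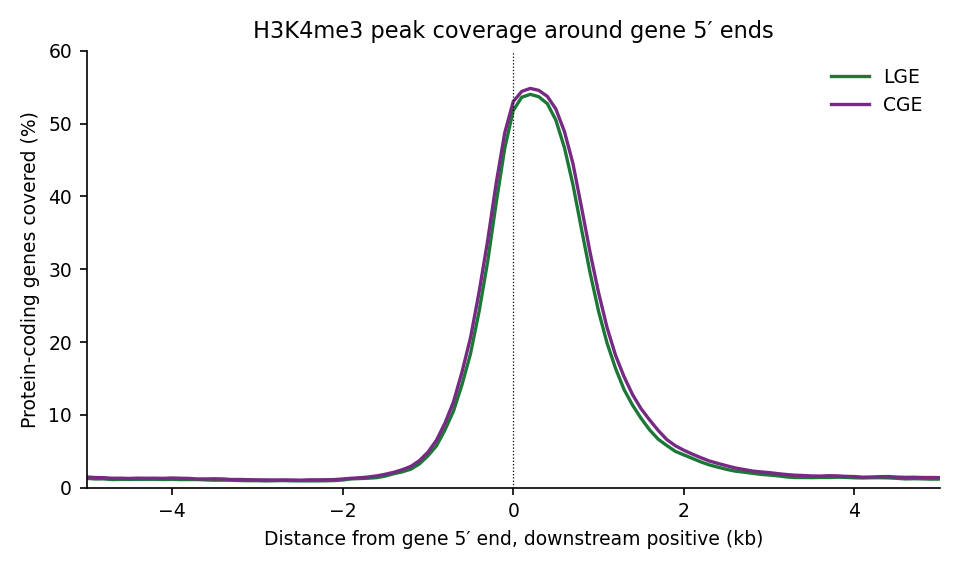
Share of 21938 protein-coding genes (%) whose position at each distance from the gene 5′ end (kb, 100-bp steps, downstream positive) was covered by a peak in the LGE (green) or the CGE (purple) list. At the 5′ end the curves stand at 51.8% in the LGE and 53.0% in the CGE, both are highest 200 bp downstream of it, at 54.0% and 54.8%, and the CGE curve stays slightly above the LGE curve on both sides.

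A broader mark in the CGE was the more frequent kind of difference. At least 1.5 times as many covered bases were found in the CGE for 522 genes (3.74% of those marked in both, 95% interval 3.44 to 4.06) and in the LGE for 131 genes (0.938%, 0.791 to 1.11). Because the whole CGE list was wider, genes were also ranked within each list. By this measure 824 genes (3.76% of all) were at least 10 percentile points higher in the CGE and 459 (2.09%) in the LGE. All 211 genes marked in the CGE list alone and all 121 marked in the LGE list alone are among these by construction. Genes unmarked in a list tie at its 17.9th (LGE) or 17.7th (CGE) percentile, more than 10 points below any marked gene. Both rules were met by 313 genes in the CGE direction and by 69 in the LGE direction. Dividing every ratio by the median of all genes left 408 genes wider in the CGE and 161 in the LGE.

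Where both lists had a peak over the 5′ end, the extra width lay mainly downstream of it. Of the 522 genes wider in the CGE, 252 had a peak over the 5′ end in both lists, and in these the CGE peak reached a median of 67.5 bp further upstream and 316 bp further downstream. The downstream edge differed more than the upstream edge in 178 of the 252. Among the 131 genes wider in the LGE, 53 had such peaks, and the medians of CGE minus LGE were −14 bp upstream and −225 bp downstream. The downstream edge differed more in 31 of the 53. Peaks over the 5′ end reach further downstream in general, with LGE medians of 370 bp upstream and 894 bp downstream over 11222 genes.

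**Figure D2:**
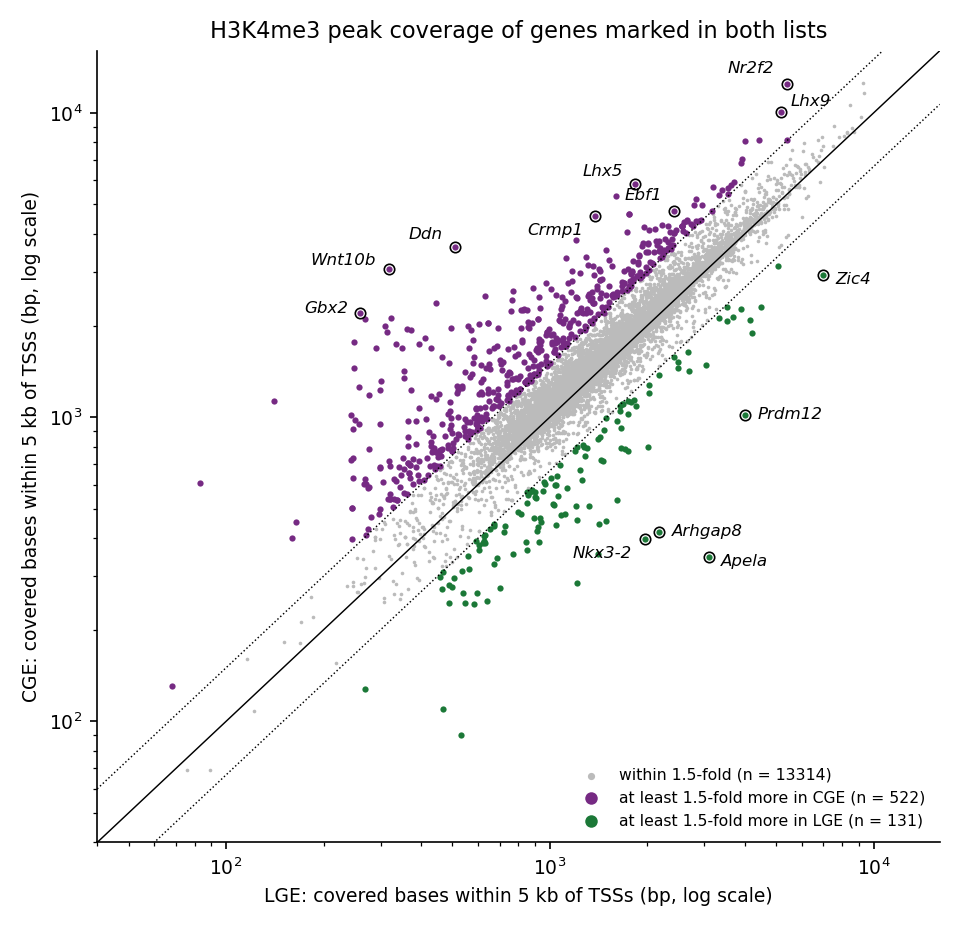
Covered bases within 5 kb of TSSs in the LGE list (x axis, bp, log scale) and the CGE list (y axis, bp, log scale), 1 point for each of the 13967 genes marked in both lists. Dotted lines mark 1.5-fold, and 522 genes lie above the upper and 131 below the lower line, with Nr2f2, Lhx9, Lhx5, Ddn, Wnt10b and Gbx2 among the first and Zic4, Prdm12, Apela and Arhgap8 among the second.

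Nr2f2 was the most covered gene of the CGE list among those wider there. It encodes COUP-TFII, a nuclear receptor that marks the CGE and its interneurons, and lies on the minus strand at chr7:70351944-70366735. It had 5401 covered bases in the LGE, 12460 in the CGE, 3700 in the MGE and 2208 in the CTX list. The CGE value was 2.31 times the LGE value (log2 1.21), at the 99.7th percentile of all genes in the LGE and the 100th in the CGE, so that the percentile rule could not call it. The call held when the CGE list was trimmed to the covered bases of the LGE list, but limiting both lists to the 17280 peaks of highest fold, which drops 468 CGE peaks with a fold below 2.49 and 0 LGE peaks, removed every CGE peak at the gene, whose folds were 1.72 to 2.30, and left the LGE value 5401 bases higher.

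The difference at Nr2f2 was made of separate peaks more than of wider ones. Within 50 kb of its 5′ end the lists together held 10 intervals, of which 7 were in the CGE list alone, 3 in both and 0 in the LGE list alone. These intervals summed to 5743 covered bases in the LGE and 20452 in the CGE, with 10858 of the latter in the CGE-only intervals. For comparison, the sums were 5128 in the MGE and 2440 in the CTX list. The CGE-only intervals included chr7:70365285-70366504, 1220 bp that lie in annotated exons at the 5′ end of Nr2f2, chr7:70367627-70370688, 3062 bp just upstream, and chr7:70334901-70338168, 3268 bp beyond the 3′ end over a start of the lincRNA Gm29683. Their −log10 q ran from 4.51 to 16.4, low against the median of the list, and 4 of the 7 overlapped an MGE peak and 1 a CTX peak. Of all CGE-only intervals, 49.9% overlapped an MGE peak and 36.2% a CTX peak. No gene of the genome had more CGE-only intervals within 50 kb, and 4 genes had 5 or more. The other 3, Ptbp1 with 6 and Plppr3 and Prtn3 with 5 each, are neighbours on chromosome 10 and were picked out once the counts were known. The most LGE-only intervals within that distance of any gene was 3.

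**Figure D3:**
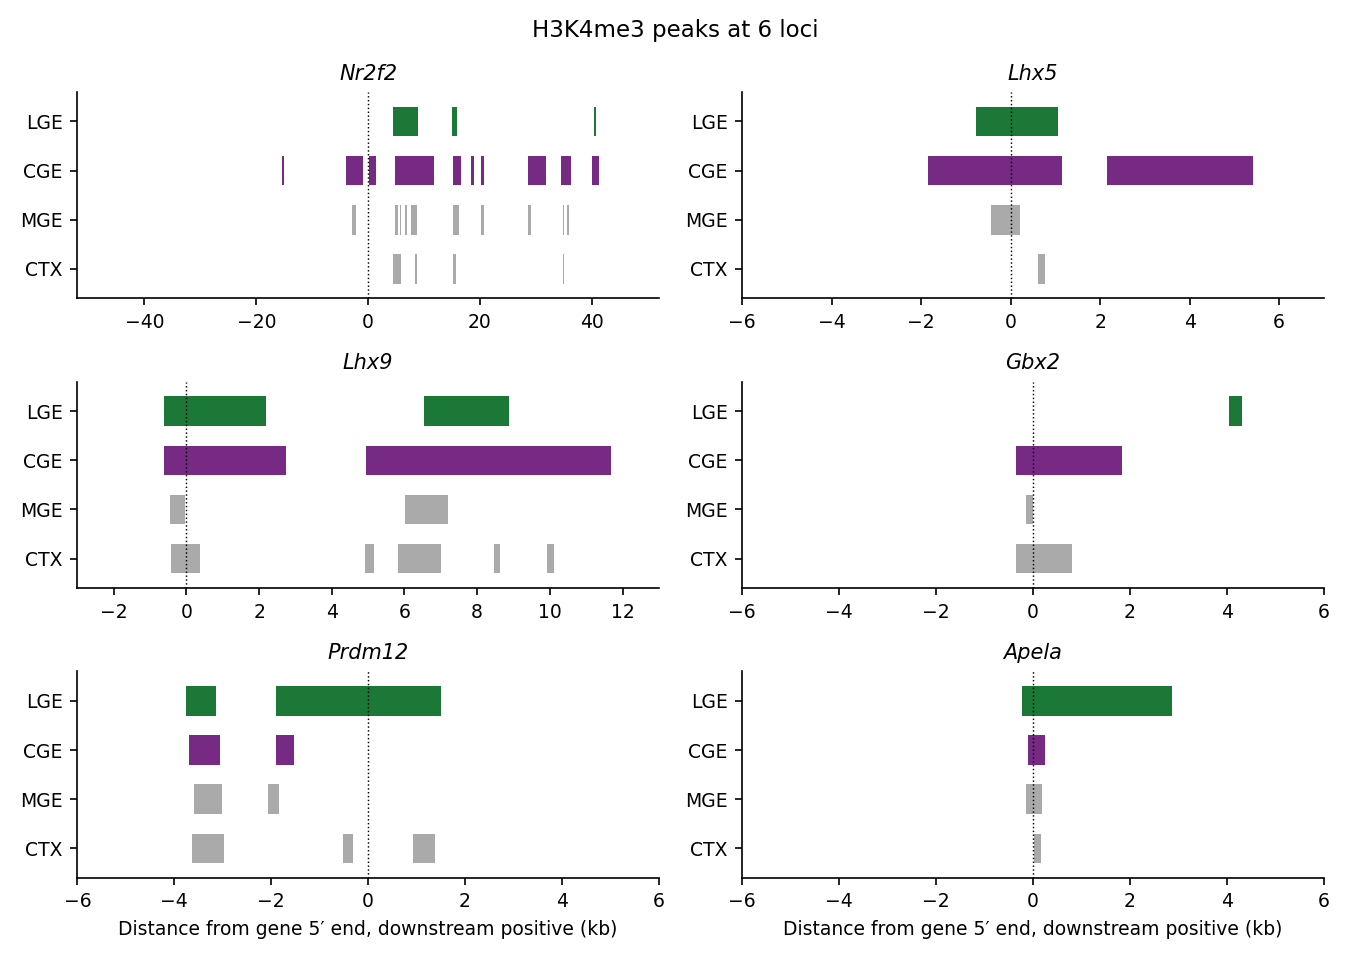
Peaks of the LGE (green), CGE (purple), MGE and CTX (grey) lists at 6 loci, drawn to scale by distance from the gene 5′ end (kb, downstream positive, dotted line at 0). At Nr2f2 the CGE list holds 10 peaks where the LGE list holds 3, at Lhx5, Lhx9 and Gbx2 the CGE peaks cover more sequence, and at Prdm12 and Apela the LGE peaks do.

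Genes with the largest gain of covered bases in the CGE included several LIM-homeodomain and signalling genes. Lhx5 (chr5:120431699-120441223), a LIM-homeodomain factor of Cajal-Retzius and hypothalamic cells, had 1832 covered bases in the LGE and 5839 in the CGE, against 654 in the MGE and 159 in the CTX list. Its LGE peak sat on the 5′ end, and the CGE list held a wider peak there and another of 3266 bp inside the gene that was in no other list. Lhx9, a related factor of the amygdala and diencephalon, had 5158 bases in the LGE, 10083 in the CGE, 1594 in the MGE and 2566 in the CTX list. A CGE peak of 6737 bp over its internal starts matched an LGE peak of 2333 bp, and the promoter printed above lies in the part that the LGE peak left uncovered. Lhx1, another LIM-homeodomain factor, had 1124 and 3330 covered bases in the LGE and CGE lists. These 3 genes were at least 1.95 times wider in the CGE. Under the limit by highest fold the difference of CGE minus LGE was −1812 bases at Lhx9 and −1832 at Lhx5.

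Other genes at the top of this order act in neurons or in signalling. Ddn, which encodes the postsynaptic protein dendrin, went from 510 bases in the LGE to 3610 in the CGE, and Wnt10b, a secreted Wnt ligand, from 318 to 3059. They had 301 and 131 covered bases in the MGE list and 309 and 0 in the CTX list, and the −log10 q of their best CGE peaks was 4.61 and 3.39. These peaks were lost when the CGE list was trimmed to the covered bases of the LGE list. Crmp1, a collapsin response mediator of growing axons, had 1383 bases in the LGE and 4569 in the CGE. Its single LGE peak lay 3768 to 5150 bp downstream of the 5′ end, and the CGE list added a separate peak of 2674 bp over the 5′ end itself, with a −log10 q of 19.8, the highest of all CGE-only intervals. The fold of that peak was 1.71, so that the limit by highest fold removed it, left 1895 bases and ended the 1.5-fold call. The MGE and CTX lists held peaks of 130 and 135 bp at that 5′ end. Btbd3, a BTB-domain protein that orients dendrites, had 1599 and 5310 bases, and the difference came mostly from a peak at a start 21.6 kb inside the gene that was 512 bp wide in the LGE and 3574 bp in the CGE. Pdgfra, the receptor that marks oligodendrocyte precursors, had 1206 and 3833 bases. Ppt2 and Prrt1 share a peak and both had 1752 and 4656 bases, the ubiquitin-conjugating enzyme gene Ube2h 1737 and 4071, and Vstm2a 1956 and 4226.

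Prdm12 and Apela were among the genes with the largest differences in the LGE direction. Prdm12 (chr2:31640037-31655795), a PR-domain factor best known from sensory neurons, had 4003 covered bases in the LGE and 1018 in the CGE, against 803 in the MGE and 1313 in the CTX list. An LGE peak of 3399 bp spanned its 5′ end, and in the CGE list a peak of 376 bp remained more than 1.5 kb upstream. Apela (chr8:65028417-65037336), which encodes a peptide ligand of the apelin receptor, had 3096 bases in the LGE, 346 in the CGE, 321 in the MGE and 157 in the CTX list. Its LGE value stood apart from all 3 other lists. The −log10 q of the widest LGE peaks was low at both genes, 4.05 at Prdm12 and 5.11 at Apela.

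The zinc-finger genes Zic1 and Zic4 were broader in the LGE, while their paralogues Zic2 with 3127 and 3408 bases and Zic5 with 2963 and 2709 lay within 1.25-fold and are named after their values were seen. Zic1 and Zic4 lie head to head, and a single LGE peak of 3901 bp with a −log10 q of 48.7 covered the stretch between and into them, where the CGE list had peaks of 754 and 1516 bp. Zic1 had 3901 and 2270 covered bases in the LGE and CGE lists and Zic4 6959 and 2921, and part of that difference is the same sequence. Both were also below the LGE in the MGE and CTX lists, with 2656 and 2676 bases at Zic1 and 4250 and 4971 at Zic4. The peaks of the MGE and CTX lists are narrower throughout. Other genes of this order were the kinase gene Stk39 with 4214 and 1891 bases and the helicase gene Dhx32 with 4158 and 2081. The GTPase-activating gene Arhgap8 had 2175 and 420, and the homeobox gene Nkx3-2 1962 and 398. The best −log10 q at Nkx3-2 was 1.81 in the LGE and 1.42 in the CGE list, so that a minimum of 2 leaves no peak there. The transporter gene Slc45a3 had 3036 and 1479, and Lipg, endothelial lipase, 3668 and 2128.

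Genes marked in a single list were few and weakly marked. The CGE list alone marked 211 genes (0.962% of 21938, 95% interval 0.841 to 1.10) and the LGE list alone 121 (0.552%, 0.462 to 0.659). Their median coverage was 394 bases for the CGE and 410 for the LGE, where genes marked in both had 1508 in the CGE and 1408 in the LGE, and their best peaks stood at the 6.51th and 6.29th percentile of −log10 q in the own list. In 8 of the 211 and 1 of the 121 the peak was part of an interval that both lists shared but that reached into the window in a single list. A peak of the MGE list was present at 94 of the 211 (44.5%) and 59 of the 121 genes (48.8%), and a CTX peak at 85 (40.3%) and 59 (48.8%). Over all genes the shares were 65.0% for the MGE and 63.8% for the CTX list, and over genes marked in both lists 98.1% and 97.3%. When the weakest CGE peaks were dropped until the list covered as many bases as the LGE list, 19 genes were left in the CGE list alone, all of them among the 211, and 607 genes were then in the LGE list alone. Among the 19, Olfr986, Eif4e1b, B3gnt6, Eppk1, Hsd17b14, Fyb and Pcdhgb4 had 17 to 277 covered bases, all from intervals that both lists shared. The 19 did not include any of the 10 genes with the most covered bases that are named next. The number of genes in a single list moved with the length of the lists.

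Of the 10 genes with the most covered bases among those of the CGE list alone, 5 encode transcription factors. Tfap2e (chr4:126716006-126736240), which encodes AP-2 epsilon, had 2534 covered bases in the CGE list in 2 peaks, 0 in the LGE, 556 in the MGE and 0 in the CTX list. Bhlhe23, a basic helix-loop-helix factor, had 1968 bases in the CGE list, 0 in the MGE and 269 in the CTX list. Foxd2, Pitx1 and Runx3, of the forkhead, homeobox and runt families, had 1511, 1260 and 1162 bases. The rest of the 10 were 4930404N11Rik with 1646 bases, Tmem200b with 1560, the potassium channel gene Kcnn4 with 1428, the collagen gene Col22a1 with 1318 and the anion exchanger gene Slc4a1 with 1239. The −log10 q of the best peak of these 10 genes lay between 1.46 and 5.13.

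Some of the genes that appeared to be marked in the LGE alone lay in stretches where a CGE peak number is missing. The divergent genes Aida and Brox headed this order, with 1800 covered bases in the LGE, 0 in the CGE, 1674 in the MGE and 1629 in the CTX list and a −log10 q of 187 in the LGE. Pwwp2a with 1382 and Trmt10c with 1306 bases had strong LGE peaks too, with −log10 q of 28.5 and 123, and all 4 genes were in such a stretch. In all, 6 of the 121 LGE genes and 3 of the 211 CGE genes were, and 115 and 208 remained without them. Outside these stretches the most covered LGE genes were Tnc (chr4:63959785-64047015), which encodes the matrix protein tenascin-C, with 1681 bases in the LGE and 0 in each of the 3 other lists, and Utf1, a pluripotency-associated factor, with 1441 bases in the LGE and 227 in the CTX list. Others were the metalloprotease gene Adamts12 with 1361, Thsd4 with 1216 and Flrt1 with 1198. Thsd4, a matrix protein gene, had the strongest of these peaks, with a −log10 q of 16.3, and 729 covered bases in the MGE list.

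Gene lists common to the eminences were described as a reference, and they cannot tell the LGE label from the CGE label. All 13 genes of the GABAergic programme common to the eminences were marked in both lists, and they summed to 41919 covered bases in the LGE and 49647 in the CGE, against 29154 in the MGE and 11773 in the CTX list. The homeobox genes Dlx2 and Gsx2 were nearly equal, with 2734 and 2758 bases and 2189 and 2209 bases in the LGE and CGE. Dlx6 was 1.42 times wider in the CGE, with 4836 and 6877 bases. Gad1, which makes GABA, and the progenitor factor Gsx1 passed 1.5-fold in the CGE direction, with 2883 and 4418 bases and 1176 and 2087 bases. That was 15.4% of the list, against 3.74% of all genes marked in both lists. The 12 housekeeping genes were all within 1.25-fold, with a median log2 ratio of 0.08, equal to that of all genes, and none of the 28 progenitor and neuronal genes passed 1.5-fold in either direction.

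Genes of the LGE and striatal lineage were not broader in the LGE list. All 27 were marked in both lists, with a median log2 ratio of CGE to LGE of 0.10. In the CGE direction 3 (11.1%) passed 1.5-fold and in the LGE direction 1 (3.70%). Of all genes marked in both lists, 3.74% and 0.938% did. Ebf1, a factor of striatonigral neurons, had 2425 covered bases in the LGE and 4775 in the CGE, and Isl1, a LIM-homeodomain factor of the same neurons, had 2223 and 4284. At Isl1 the peak over the 5′ end was nearly the same, 1789 bp in the LGE and 1980 bp in the CGE, and a downstream peak was 434 bp and 1822 bp. That downstream peak was lost under the limit by highest fold, which left a difference of −243 bases. Pdyn, the prodynorphin gene, had 459 and 782 bases. Aldh1a3, a retinoic acid enzyme of the striatal primordium, was the member that was broader in the LGE, with 1667 and 1103 bases. Meis2 was among the most covered genes of both lists, with 8719 and 8681 bases, and Foxp1 had 4483 and 4572.

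Genes of the CGE lineage were mostly equal apart from Nr2f2. Of 24 listed, 20 were marked in both lists with a median log2 ratio of 0.12. Of these, 3 (15%, against 3.74% of all genes marked in both lists) passed 1.5-fold in the CGE direction and 0 in the LGE direction. Besides Nr2f2 these were Lmo3, a LIM-only cofactor, with 3159 and 4757 bases, and Npas1, a factor of CGE interneurons, with 494 and 940. Lmo3 lost its call with the trimmed CGE list, at 3308 bases. The paralogue Nr2f1 had 6753 and 8125 bases and Prox1, a homeobox gene of CGE interneurons, 2373 and 2604. Reln was narrower in the CGE, with 3056 and 2091 bases, and lay at least 10 percentile points lower there. The interneuron markers Htr3a, Scgn, Sncg and Vip had no peak in either list.

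Among the 15 lists, that for the amygdala, hypothalamus and diencephalon had the most genes that were broader in the CGE. In it, 28 of 32 genes were marked in both lists, and the median log2 ratio was 0.39. Of the 28, 12 passed 1.5-fold in the CGE direction and 3 in the LGE direction. That was 42.9% and 10.7%, against 3.74% and 0.938% of all genes marked in both lists. These 12 were mainly homeobox, forkhead and GATA genes. Among them Gata2 had 1237 bases in the LGE and 2975 in the CGE, Sim2 887 and 2660, Hmx3 878 and 2040, Rax 290 and 1682, and Irx5 972 and 1868, and the others were Foxd1, Gbx2, Irx1, Irx2, Lhx5, Lhx9 and Nkx2-2. In the LGE direction were Zic4, Vax2 with 1652 and 1046 bases and Gata3 with 1213 and 800. Barhl1 was marked in the CGE list alone with 473 bases, and Dlx4 in the LGE list alone with 285. A gene can stand in more than 1 list, and Lhx5, Lhx9 and Gbx2 do. With the trimmed CGE list 6 of the 12 calls were left, since the direction turned at Gata2, Hmx3, Irx1, Nkx2-2 and Rax and Sim2 fell to 1147 bases, and under the limit by highest fold 7 were left. Nkx2-2 lies in a stretch where both lists miss a peak number. The 32 genes were thinly covered in the LGE list, at a median percentile of 48.1, against 79.1 for the housekeeping genes. Over all genes wider in the CGE the median was 852.5 LGE bases, against 1408 for all genes marked in both lists. The part of this lower coverage in the share of calls was not tested.

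The list for the cortical hem, choroid plexus and Cajal-Retzius cells had 22 genes marked in both lists and a median log2 ratio of 0.25. Of these, 5 (22.7%, against 3.74% of all genes marked in both lists) passed 1.5-fold in the CGE direction and 0 in the LGE direction. Besides Lhx1 and Lhx5 these were Ebf3 with 1289 and 3357 bases, Wnt8b with 355 and 1417, and Msx2 with 519 and 1224. The direction turned at Wnt8b with the trimmed CGE list. This list was also thinly covered in the LGE, at a median percentile of 54.2. The choroid plexus genes Ttr and Folr1 were marked in neither list. The pallial list had a median log2 ratio of 0.06 over 24 genes. In the CGE direction 4 (16.7%) passed 1.5-fold and in the LGE direction 2 (8.33%). Of all genes marked in both lists, 3.74% and 0.938% did. Lhx9, Slc17a6 with 3412 and 5574 bases, Sfrp2 with 2169 and 3792 and Dmrt3 with 1460 and 2287 were broader in the CGE, and the cortical neuron genes Neurod6 with 1132 and 584 and Slc17a7 with 1657 and 790 in the LGE. Slc17a6 and Slc17a7 encode the vesicular glutamate transporters VGLUT2 and VGLUT1, and they differed in opposite directions. The calls at Slc17a6 and Dmrt3 were lost with the trimmed CGE list, at 4803 and 1914 bases, and those at Slc17a6 and Lhx9 under the limit by highest fold.

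Several genes of the MGE lineage were broader in the CGE than in the LGE list. Of 19 marked in both, 6 (31.6%) passed 1.5-fold in the CGE direction and 1 (5.26%), Zic1, in the LGE direction. Of all genes marked in both lists, 3.74% and 0.938% did. Shh, the ventral signalling ligand, had 1417 covered bases in the LGE, 3078 in the CGE, 1496 in the MGE and 0 in the CTX list. Lhx8, a factor of cholinergic neurons, had 1208, 2490, 2066 and 0 in the same order, Lhx6, a factor of MGE interneurons, 3711, 5920, 3057 and 451, and Nkx2-9, a homeobox gene, 929, 2486, 675 and 0. Gbx1 had 1217, 2463, 457 and 264 bases in the same order, and Gbx2 260, 2203, 145 and 1162. There was no LGE peak at the 5′ end of Gbx2, where the CGE, MGE and CTX lists each had one. Nkx2-1, which defines the MGE, had 2934, 3804, 3262 and 0 bases, and its CGE value was 1.30 times the LGE value. The MGE list has narrower peaks throughout, so these values do not rank the MGE against the LGE or the CGE. Sst was marked in the CGE list alone, with 638 bases and 0 in the MGE list. Under the limit by highest fold the difference at Lhx6 was −2860 bases, and at Nkx2-9 it was −929 with the trimmed CGE list, which left 4 of the 6 calls, without Lhx6 and Nkx2-9. How much tissue of neighbouring regions each dissection held was not tested.

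**Figure D4:**
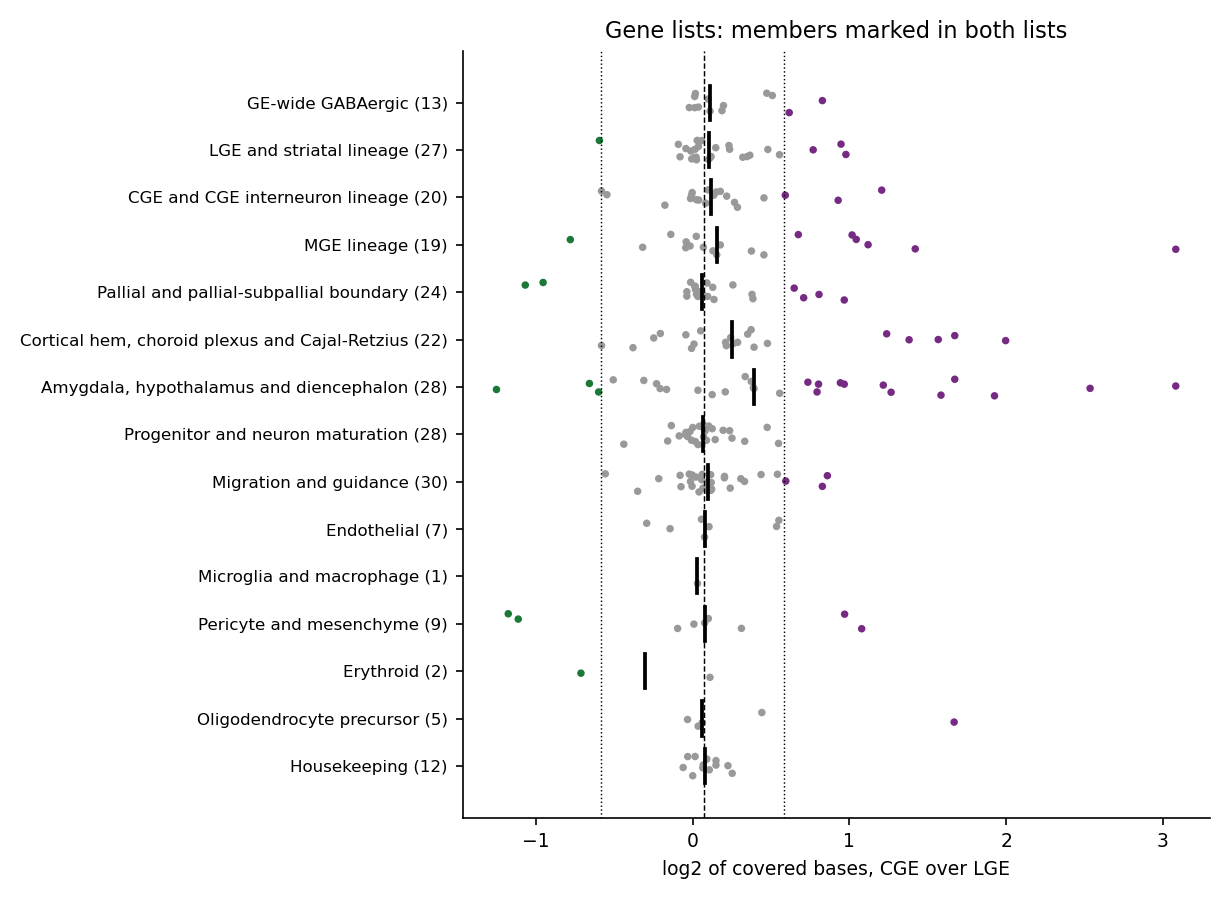
Log2 ratio of covered bases, CGE over LGE (x axis), for the members of 15 gene lists that were marked in both lists, 1 point per gene with the number of genes in parentheses and a bar at the list median. The dashed line is the median of all genes (0.08) and dotted lines mark 1.5-fold. The list for the amygdala, hypothalamus and diencephalon has the highest median (0.39), and the housekeeping genes cluster around the dashed line.

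Markers of other cell types were marked to different extents, where 63.7% of all genes were marked in both lists. Of 12 microglia and macrophage genes 1 was marked, with 1155 and 1175 bases in the LGE and CGE, and the defining genes Csf1r, Cx3cr1 and P2ry12 were at 0. Of 12 endothelial genes 7 were marked in each list, summing to 9164 and 9983 bases. These 7 were Cldn5, Erg, Esam, Flt1, Kdr, Sox17 and Sox18, and the other 5, among them Pecam1, Cdh5 and Tie1, were at 0. The list for pericytes and mesenchyme had 9 of 14 genes marked in both lists and summed to 10291 and 11819 bases. Foxc1 and Pdgfrb were broader in the CGE and Foxc2 and Twist1 in the LGE. That was 22.2% in each direction, against 3.74% and 0.938% of all genes marked in both lists. The direction turned at Foxc1 with the trimmed CGE list and at Foxc2 with a −log10 q of at least 2. Of 8 erythroid genes 2 were marked in the LGE and 3 in the CGE. The oligodendrocyte precursor list had 5 of 7 genes marked in both lists and summed to 7859 and 10761 bases. Pdgfra was its single member past 1.5-fold, 20% against 3.74% of all genes marked in both lists. The migration and guidance list had 30 genes, all marked in both lists. Ackr3, Efnb3 and Unc5d passed 1.5-fold in the CGE direction, 10% against 3.74% of all genes marked in both lists. In the LGE direction 0 passed it. The part of these cell types in the differences was not tested.

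Interval by interval, the lists had most of their sequence in common. Their union held 18591 nuclear intervals, of which 16367 (88.0%) were in both lists, 1376 (7.4%, 95% interval 7.03 to 7.79) in the CGE list alone and 848 (4.56%, 4.27 to 4.87) in the LGE list alone. Shared intervals had a median width of 1317 bp and 85.6% of them lay within 2 kb of a TSS. The single-list intervals were narrow and distal, with median widths of 393 bp in the CGE and 381 bp in the LGE and 36.8% and 33.8% within 2 kb of a TSS. They were also weak, with a median −log10 q of 2.60 and 2.29. Among shared intervals, 971 (5.93%) had at least 1.5 times as many covered bases in the CGE and 323 (1.97%) in the LGE. In 65 shared intervals a single CGE peak spanned several LGE peaks, and in 5 the reverse held.

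**Figure D5:**
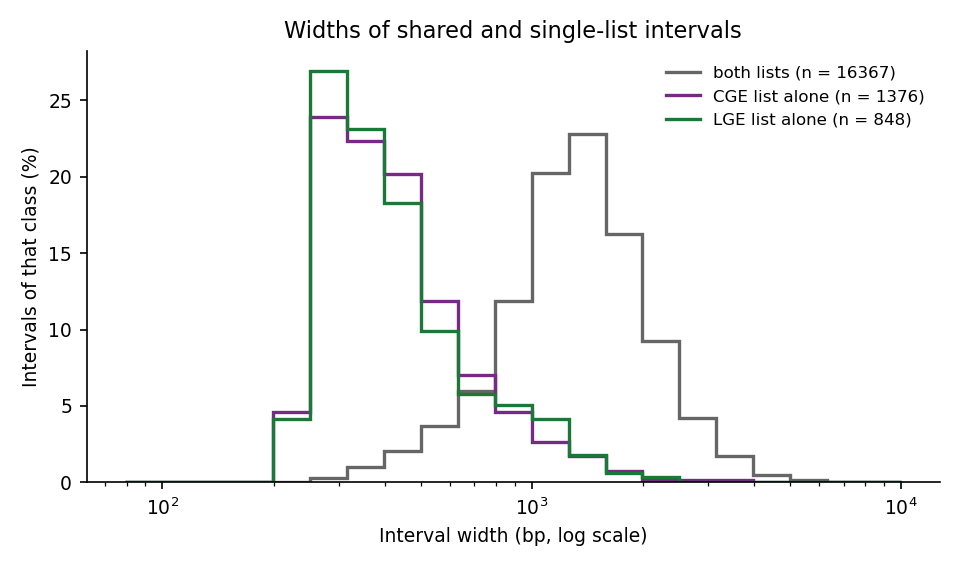
Distribution of interval widths (bp, log scale) as a share of the intervals of each class (%), for intervals in both lists (grey, n = 16367), in the CGE list alone (purple, n = 1376) and in the LGE list alone (green, n = 848). The shared intervals centre on a median of 1317 bp and the single-list intervals on 393 and 381 bp.

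The widest single-list intervals were longer than a typical promoter peak. In the CGE list these were the interval at Gm29683 with 3268 bp, that inside Lhx5 with 3266 bp, that upstream of Nr2f2 with 3062 bp, that at the 5′ end of Crmp1 with 2674 bp and that at Gbx2 and D130058E05Rik (chr1:89929336-89931538) with 2203 bp. They lay at or beside genes already described. In the LGE list the widest was at an internal start of Stk39 (chr2:68364240-68366507), with 2268 bp. The next were in the lincRNA Gm16086 with 2197 bp, 36.7 kb from the start of Gm29260 and outside annotated genes with 2038 bp, in an intron of Rnf220 with 1876 bp, and at Aida and Brox with 1800 bp, where a CGE peak number is missing. The 4 outside that stretch had −log10 q of 2.33 to 5.43, and those of the 5 CGE intervals ran from 3.65 to 19.8.

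The promoters of single-list genes were poorer in CpG than those of shared genes. The 250 bases upstream of a RefSeq start held a median of 7 CG for genes of the CGE list alone (149 of 211 matched) and 8 for genes of the LGE list alone (89 of 121). The median was 12 for genes wider in the CGE, 10 for genes wider in the LGE, 16 for all genes marked in both lists and 2 for genes marked in neither. The interquartile range over genes was 4 to 13 CG in both single-list groups.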

How the data were processed

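H3K4me3 was measured by CUT&Tag in mouse LGE, CGE, MGE and CTX. The authors aligned reads to GRCm38/mm10 with Bowtie2, removed blacklisted reads and Picard duplicates, merged replicates with SAMtools and called broad peaks with MACS. deepTools also stands in the submitters' processing notes. The MACS version, threshold and control are not given in the sources used here. The deposited lists have 9 columns without header. The authors' score is 10 times the −log10 q cut to a whole number for nearly all peaks, the deposited fold is a ratio of reads over background, and the deposited −log10 p and −log10 q grow with depth and were used as ranks or minimums alone. The read depth behind a peak is unknown.

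Covered bases within 5 kb of any GENCODE M21 TSS were summed per protein-coding gene with Python 3.11.15, numpy 2.4.6, pandas 2.3.3, scipy 1.17.1 and matplotlib 3.10.9. The 13 mitochondrial protein-coding genes were left out. A peak near several genes counted for each. Percentiles are over 21938 genes. Calls were coverage in a single list, a ratio of at least 1.5 or a difference of at least 10 percentile points with bases in the same direction. An interval belonged to a single list when it held no base of the other. Named were members of 15 gene lists that met a call, the 10 genes per direction with the largest difference in bases among those marked in a single list and among those marked in both and called by percentile, the 5 widest single-list intervals per list and the 5 largest percentile differences per direction. Other members are named as reference, and a few genes that met the rule are not reported here. The members, lists and calls were chosen with earlier results of these data known. Promoter bases came from the RefSeq table of GRCm38.p6, in which 16539 of the genes matched, and interval bases from the GRCm38.p6 genome. Interval arithmetic was tested on simulated data and gave the right number of bases in 200 of 200 runs. Peak filters, window sizes, thresholds and list lengths were varied as given in the closing section.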

Additional observations from a re-analysis of the deposited data

How the results depend on the processing

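No paired analysis was possible because each list was called on merged replicates, and for the same reason no replicate could be left out. Trimming the CGE list from the lowest −log10 p to the covered bases of the LGE list gave 19 genes and 82 intervals in the CGE list alone, 607 genes and 2592 intervals in the LGE list alone, 313 genes wider in the CGE, 529 and 979 genes higher by percentile in the CGE and LGE, and 51.6% of genes with a CGE peak at the 5′ end. With that list the difference of CGE minus LGE turned to −880 bases at Tfap2d, −1014 at Nkx2-2, −1052 at Msx1, −318 at Gata2, −878 at Hmx3, −1339 at Hmx2, −1610 at Esam, −929 at Nkx2-9, −1448 at Foxc1, −355 at Irx1, −318 at Wnt10b, −510 at Ddn, −290 at Rax and −355 at Wnt8b. With both lists limited to 17280 peaks by highest fold it turned to −1812 at Lhx9, −2860 at Lhx6, −1832 at Lhx5, −318 at Gata2, −5401 at Nr2f2, −58 at Esam and −243 at Isl1. That limit drops 468 CGE peaks and 0 LGE peaks, since the LGE list has 17280. It also turned at Foxc2 (421) and Foxb1 (1427) with a −log10 q of at least 2, at Plxna4 (245) with 2 kb windows and at Esam (−200) with 10 kb windows.

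Peaks of at least 500 bp left 83 genes wider in the LGE and 519 intervals in the LGE list alone. On autosomes 52.8% and 54.0% of genes had an LGE and a CGE peak at the 5′ end. At 2-fold, 163 and 46 genes were wider in the CGE and LGE, and at 1.25-fold 1488 and 312. At 5 percentile points 1714 and 1230 genes were higher in the CGE and LGE, at 20 points 231 and 116, and ranking over marked genes alone gave 695 in the LGE. The other 79 summary counts and shares over the alternatives stayed within 1.5 times the main count or within its interval, among them those without stretches of missing peak numbers, an alternative added after the data were seen, and those with peaks less than 1 kb apart joined. Counts in the CGE direction exceeded those in the LGE direction under every alternative except the trimmed list for single-list genes and intervals and for percentiles. The cause of these changes was not tested beyond the construction given. The depth behind each peak is unknown, so weak single-list peaks cannot be told from peaks just under the threshold of the other list.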

Other observations

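The Hox genes, which pattern the hindbrain and spinal cord, carried a few weak peaks that differed between the lists. They were chosen after their values were seen. Of 39 Hox genes, 5 were marked in both lists, 12 in the CGE list alone and 7 in the LGE list alone, where 0.962% and 0.552% of all genes were in a single list. In the Hoxa cluster of 11 genes, 7 were in the CGE list alone (Hoxa3, Hoxa4, Hoxa5, Hoxa6, Hoxa9, Hoxa10 and Hoxa11) and 0 in the LGE list alone, and covered bases summed to 801 in the LGE, 3533 in the CGE, 948 in the MGE and 127 in the CTX list. The LGE-only members were Hoxb1, Hoxb3, Hoxb4, Hoxc4, Hoxc5, Hoxd11 and Hoxd12. The highest −log10 q at any Hox gene was 7.99 in the CGE and 3.01 in the LGE list. Adjacent genes share peaks, so these are not independent counts.

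The narrowest peak of the LGE and CGE lists was 243 and 242 bp wide, against 114 bp in the MGE and 122 bp in the CTX list.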
